A study of Homo sapiens with 4 samples.

Results

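CCCP was added to OMM2.3 cells that also received DHA, and the library of these cells was compared with the library of cells given DHA alone. The comparison covered 12883 of the 58735 genes in the annotation, those with at least 1 FPKM in either of these 2 libraries. FPKM counts fragments per length of exon and per depth of the library, so it is a level per unit of transcript length. OMM2.3 is an established human uveal melanoma line that came from a metastasis in the liver. The series held 4 RNA-seq libraries of this line, 1 per group: control, CCCP, DHA, and CCCP with DHA, called the combination here. Every group was grown with 10% serum, and the label does not spell out what DHA stands for. Doses, times and the treatment of control cells are not given in the sources used. Nothing in the labels says whether a library came from 1 culture or from several pooled.

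CCCP, or carbonyl cyanide m-chlorophenyl hydrazone, is an uncoupler that carries protons across the inner mitochondrial membrane, so that the membrane potential collapses and respiration runs without making ATP. Cells meet such a loss by running more glycolysis where they can, by marking damaged mitochondria for removal through PINK1 and Parkin, and by signalling to the cytosol through kinases that phosphorylate the translation factor eIF2-alpha. That phosphorylation favours translation of the transcription factor ATF4, and the genes ATF4 switches on make up the integrated stress response.

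Reads summed over genes numbered between 16900411 and 18937286 per library, and protein-coding genes held 97.0 to 97.7% of them. With 1 library per group there was no spread between replicates and no test was possible, so each difference below is a difference between 2 libraries. Intervals in brackets after a fold are exact 95% binomial limits on the ratio of FPKM, which cover counting error only. The library kit marks no strand, so reads of overlapping or antisense genes cannot be told apart. Ratios written as log2 were taken on FPKM + 0.5, which understates the difference for genes near 1 FPKM. Calls of 2-fold were made on that scale, so that a low gene can pass 2-fold in FPKM without being called. In bulk RNA, fewer cells with a transcript and less of it per cell cannot be told apart.

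Adding CCCP to DHA-treated cells left most transcripts close to their level with DHA alone. Under the 2-fold rule, protein-coding calls in the combination were more often lower than higher, whereas at 4-fold the higher ones were more numerous. The median log2 ratio over all genes was 0.01, and 50.9% of genes lay above 0. Of the 12883 genes, 408 (3.17%) were at least 2-fold higher in the combination and 452 (3.51%) at least 2-fold lower. Many of these were noncoding genes with few reads: 496 of the 543 noncoding genes past 2-fold had under 50 reads over the 2 libraries. Among the 10661 protein-coding genes, 105 (0.985%) were at least 2-fold higher and 212 (1.99%) at least 2-fold lower, all 317 with counting intervals that excluded 1. At 4-fold or more there were 15 protein-coding genes higher (0.141%) and 7 lower (0.0657%). Over all genes, 7.57% were 1.5-fold or more higher and 9.11% lower, and 0.768% and 0.38% passed 4-fold. Genes with little exon sequence held more of the calls: the 2665 protein-coding genes with up to 3396 exonic bases held 92 of the 212 lower and 47 of the 105 higher calls, and the 2667 with over 7625 bases held 20 and 17. The median log2 ratio was -0.05 in the former set and 0.05 in the latter, and the part of exon length in the calls was not tested. The rule left 326 genes between 1 and 1.1 FPKM in their higher library just inside, and 353 between 0.9 and 1 just outside. A gene that reached 1 FPKM in 1 library only had to differ between them, as 699 genes did for the combination and 655 for DHA. Such members, whose direction the filter fixed, numbered 2 each for replication, hypoxia, hair keratins and TGF-beta targets with DHA alone. There was 1 each, also with DHA alone, for glycolysis, homologous recombination, the nuclear respiratory chain, the collagens, laminins and integrins, the uveal melanoma genes and the fibroblast, epithelial, leukocyte and melanocyte markers. In the combination alone there was 1 each for the integrated stress response, NRF2 targets, sterol synthesis and apoptosis, and those of the aryl hydrocarbon receptor and inflammatory lists are given with them.

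The same agent was also given without DHA, and CCCP against control shares no library with the comparison described here. CCCP against control placed 72 (0.67%) of 10752 protein-coding genes at least 2-fold higher and 60 (0.558%) at least 2-fold lower, and over all genes 50.3% lay above 0 and 49.7% below. The values of both comparisons are given side by side below, to show what CCCP added in the presence and absence of DHA.

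The highest ratio of any well expressed gene belonged to CYP1A1, which codes for a cytochrome P450 that oxidises aromatic compounds and is the classical target of the aryl hydrocarbon receptor. CYP1A1 (chr15:74719542-74725610 in GRCh38) had 0.726 FPKM with DHA and 49.8 in the combination, beside 1.03 in control and 76.5 with CCCP. The 2 libraries that received CCCP were high and the 2 without it were low. The ratio of combination to DHA was 68.6-fold (50.8 to 94.98) and that of CCCP to control 74.2-fold (58.5 to 95.5). Of 10 targets of the receptor, 6 were measured, all 6 had ratios above 0 and 2, CYP1A1 and the quinone reductase gene NQO1, were past 2-fold. The median log2 ratio of the 6 was 0.85. NQO1 also belongs to the list of NRF2 targets below, and the listed gene SLC7A5 to that of the integrated stress response. CYP1A1 and CYP1B1 were measured through the combination library alone, so they could only lie above 0. The receptor binds the dioxin response element, whose core letters TNGCGTG were searched on both strands of RefSeq promoters. These promoters run from 250 bases before to 50 after the start of the gene, so letters farther off were not searched. The letters occurred in 1 of 5 measured targets with an entry. They occurred in 7.31% of promoters of measured protein-coding genes and in 5.51% of all promoters. The 6 measured targets had a median of 0.96 for CCCP against control. CYP1B1, a related cytochrome that also acts on steroids, had 0.618 FPKM with DHA and 1.57 in the combination, beside 0.9995 in control and 2.996 with CCCP. TIPARP, an ADP-ribosyltransferase that limits the receptor, went from 16.8 FPKM with DHA to 29.9 in the combination, 1.78-fold (1.67 to 1.899) higher. The receptor gene AHR itself was low, at 2.66 FPKM with DHA and 4.31 in the combination.

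A ranking by log2 ratio took in the 6428 protein-coding genes whose mean over the 2 libraries reached 5 FPKM. After CYP1A1, the rest of the 15 highest included inflammatory mediators, stress-response regulators and hair keratins. IL1A codes for interleukin-1 alpha and had 0.437 FPKM with DHA and 11.8 in the combination, beside 0.314 in control and 1.49 with CCCP. PTX3, a secreted pattern-recognition protein, had 2.75 FPKM with DHA and 37.4 in the combination, beside 1.19 in control and 2.44 with CCCP. Both were highest in the combination by a wide margin over each agent alone. SERPINB2, an inhibitor of urokinase, followed CCCP instead, at 5.85 FPKM with DHA and 75.7 in the combination, beside 2.82 in control and 35.4 with CCCP. Its ratio was 12.9-fold (11.4 to 14.7) with DHA present and 12.5-fold (10.6 to 14.9) without it. KRT34, an acidic hair keratin, had 156 FPKM with DHA and 669 in the combination, beside 32.9 in control and 129.9 with CCCP. Its neighbour KRT31 had 6.04 FPKM with DHA and 25.1 in the combination, beside 1.74 in control and 6.19 with CCCP. These keratins are close copies of each other in sequence, so their reads may be split between them and their separate values are uncertain. Of 13 hair keratins and associated proteins 7 were measured and 3 were at least 2-fold higher. Their median was 0.19, beside 1.27 for CCCP against control, but it was -0.0303 over all members without the filter on low values, so no direction is given for the family. LURAP1L, IDH1, ERICH2 and SLFN5 completed the order with the stress genes DDIT3, TRIB3, INHBE and SESN2 and the cytokine IL6. IDH1, the cytosolic isocitrate dehydrogenase that makes NADPH, had 10.7 FPKM with DHA and 38.7 in the combination, beside 10.1 in control and 12.5 with CCCP, a combination level 3.601-fold (3.34 to 3.89) above DHA beside 1.24-fold (1.13 to 1.36) for CCCP over control.

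Among the 15 lowest ratios, CA9, BHLHE40 and LDHA are targets of hypoxia-inducible factor. FAM111B, LMNB1 and ASF1B serve replication, the nuclear lamina and histone delivery in dividing cells. THBS1, PMEPA1, EDN1, NPPB, CPA4, C1QL1, CAVIN2 and LBH code for a matrix glycoprotein, a brake on TGF-beta signalling, endothelin-1, a natriuretic peptide, a carboxypeptidase, a C1q-like secreted protein, a caveolar coat protein and a transcription cofactor. THBS1 was the most abundant of them, at 513 FPKM with DHA and 145 in the combination, beside 706 in control and 339 with CCCP. LBH had 54.1 FPKM with DHA and 10.3 in the combination, beside 74.5 in control and 46.4 with CCCP. NPPB had 10.8 FPKM with DHA and 1.75 in the combination, beside 7.699 in control and 10.95 with CCCP. For NPPB the combination stood alone at the low end, since CCCP without DHA was 1.42-fold (1.09 to 1.86) above control.

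**Figure D1:**
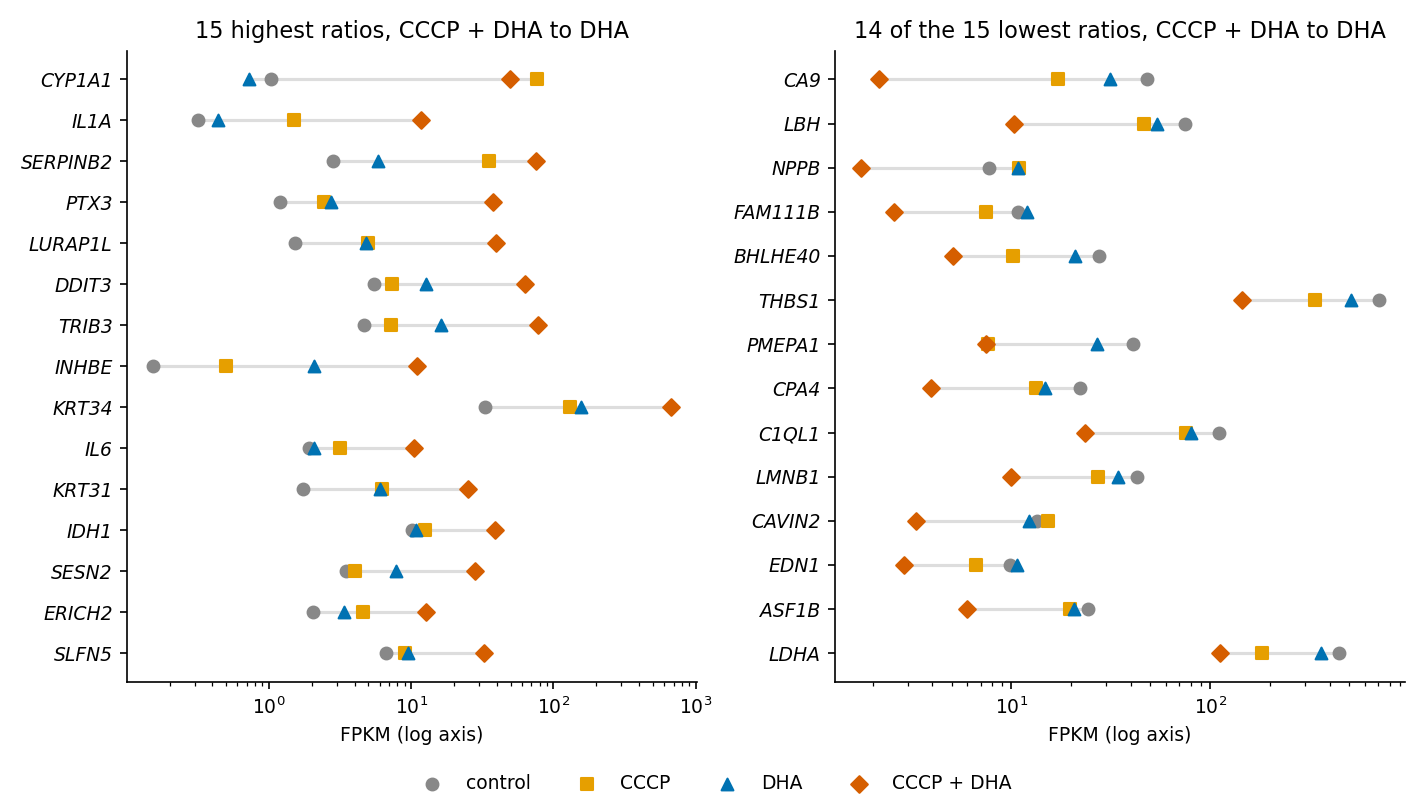
Levels in FPKM (log axis) of the 15 protein-coding genes with the highest (left) and of 14 of the 15 with the lowest (right) log2 ratio of combination to DHA, 1 symbol per library and no error bars because each group had 1 library. CYP1A1 is high in both libraries with CCCP, whereas for IL1A, PTX3, CA9 and LBH the combination lies apart from the other 3 libraries.

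Among the gene lists, replication and mitosis held the most members past 2-fold, all of them lower. Of 44 genes of DNA replication and S phase, 43 were measured, all 43 had ratios below 0 (49.1% of all genes did), 23 were at least 2-fold lower and none was 2-fold higher. Their median log2 ratio was -1.01. Of 44 genes of mitosis and the G2/M transition, 43 were measured, again all 43 lay below 0, 23 were at least 2-fold lower and the median was -1.01. The lists share no gene. In CCCP against control their medians were -0.52 and -0.08, and 2 replication genes and no mitotic gene were 2-fold lower.

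Many promoters of these genes carry short elements through which the cell cycle controls them: E2F sites in replication genes and the cell cycle homology region (CHR) in mitotic genes. The sequences below are RefSeq promoters on GRCh38.p14, from 250 bases before to 50 after the start of the gene, 5′ to 3′ on the gene's strand, with the matching letters in capitals. MCM6 (chr2:135876394-135876693, minus strand) and PCNA (chr20:5126573-5126872, minus strand) show the E2F letters, and MKI67 (chr10:128126374-128126673, minus strand) and CDC20 (chr1:43358731-43359030, plus strand) show the CHR letters.
MCM6: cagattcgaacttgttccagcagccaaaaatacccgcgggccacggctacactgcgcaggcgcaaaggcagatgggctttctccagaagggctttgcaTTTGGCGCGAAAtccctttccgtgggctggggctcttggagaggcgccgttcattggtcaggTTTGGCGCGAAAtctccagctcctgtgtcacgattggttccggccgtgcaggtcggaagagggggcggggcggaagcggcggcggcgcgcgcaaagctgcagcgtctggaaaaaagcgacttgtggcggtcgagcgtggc
PCNA: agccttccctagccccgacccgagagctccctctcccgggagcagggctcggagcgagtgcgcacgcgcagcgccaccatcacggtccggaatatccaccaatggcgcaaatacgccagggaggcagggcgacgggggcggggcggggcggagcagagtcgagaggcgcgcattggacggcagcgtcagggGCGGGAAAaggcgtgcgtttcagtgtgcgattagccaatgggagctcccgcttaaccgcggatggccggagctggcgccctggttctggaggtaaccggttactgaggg
MKI67: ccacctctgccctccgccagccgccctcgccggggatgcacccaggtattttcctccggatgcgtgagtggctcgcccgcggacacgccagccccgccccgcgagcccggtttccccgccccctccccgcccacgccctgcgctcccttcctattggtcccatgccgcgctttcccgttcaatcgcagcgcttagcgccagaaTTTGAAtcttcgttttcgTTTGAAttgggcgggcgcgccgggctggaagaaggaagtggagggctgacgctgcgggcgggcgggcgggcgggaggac
CDC20: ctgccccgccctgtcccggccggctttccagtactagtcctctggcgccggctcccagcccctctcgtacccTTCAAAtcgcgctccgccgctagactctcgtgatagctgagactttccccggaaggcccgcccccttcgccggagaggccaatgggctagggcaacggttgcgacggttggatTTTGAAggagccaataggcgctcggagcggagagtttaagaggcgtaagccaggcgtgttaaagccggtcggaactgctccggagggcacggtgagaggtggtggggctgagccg
The E2F letters searched were TTTCCCGC, TTTCGCGC, TTTGCCGC and TTTGGCGC on both strands, and where matches on opposite strands overlap they appear as 1 run of capitals. They occurred in 21 of the 38 measured replication genes with a promoter entry (55.3%), in 5.70% of promoters of measured protein-coding genes and in 3.31% of all 35116 promoters. Of the replication genes at least 2-fold lower, 13 of 19 held them, and of the others 8 of 19. The CHR letters, TTTGAA and TTCGAA on both strands, occurred in 27 of 36 mitotic genes (75%), in 10.9% of promoters of measured protein-coding genes and in 16.4% of all promoters. Of the mitotic genes at least 2-fold lower, 13 of 17 held them, and of the others 14 of 19. A match is a description of these letters and not a site of binding.

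Among replication genes, PCNA codes for the sliding clamp of DNA polymerase and had 108 FPKM with DHA and 42.7 in the combination, beside 118 in control and 71.7 with CCCP. From highest to lowest the libraries were control, DHA, CCCP and combination, and the combination was 2.52-fold (2.35 to 2.71) under DHA. MCM6, a subunit of the replicative helicase, had 20.8 FPKM with DHA and 8.34 in the combination, beside 22.9 in control and 13.97 with CCCP, 2.496-fold (2.27 to 2.75) lower with CCCP added to DHA and 1.64-fold (1.51 to 1.77) lower with CCCP alone. Of the 6 helicase subunits MCM2 to MCM7, 5 were at least 2-fold lower, with a median log2 ratio of -1.16 beside -0.80 without DHA. UHRF1, which helps copy DNA methylation onto the new strand, had 21.4 FPKM with DHA and 6.37 in the combination, beside 25.8 in control and 11.2 with CCCP. The enzymes of nucleotide supply were also lower: the thymidine kinase TK1 went from 96.5 FPKM with DHA to 35.03 in the combination. The ribonucleotide reductase subunit RRM2 was 2.76-fold (2.53 to 3.01) lower. At the other end stood CCNE1, cyclin E1, with a ratio only 1.11-fold (0.914 to 1.36) lower, a difference within counting error. The transcription factor E2F1 was 1.81-fold (1.61 to 2.03) lower.

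Mitotic genes differed between the comparisons more than replication genes did. For all 43 the log2 ratio of combination to DHA lay below that of CCCP to control, by a median of 0.88, whereas for replication genes this was so for 39 of 43, by a median of 0.50. The difference was not tested. MKI67, the nuclear protein stained as Ki-67 in dividing cells, had 24.4 FPKM with DHA and 8.47 in the combination, beside 27.5 in control and 23.1 with CCCP. Its combination level was 2.88-fold (2.74 to 3.04) under DHA, and its CCCP level 1.19-fold (1.15 to 1.23) under control. CDK1, the kinase that drives entry into mitosis, had 33.96 FPKM with DHA and 16.1 in the combination, beside 37.4 in control and 42.1 with CCCP. Its partner cyclin B1, CCNB1, had 64.5 FPKM with DHA and 29.9 in the combination, beside 78.5 in control and 67.3 with CCCP. TOP2A, the topoisomerase that untangles sister chromatids, was close in control and CCCP at 76.9 and 76.4 FPKM and differed by 2.22-fold (2.13 to 2.32) between DHA and the combination, at 67.01 and 30.1. ASPM, a spindle-pole protein, was 1.33-fold (1.26 to 1.41) higher with CCCP alone and 2.12-fold (1.97 to 2.29) lower with CCCP added to DHA. CDC20, which activates the anaphase-promoting complex, was 1.92-fold (1.79 to 2.07) lower, just short of 2-fold on the log2 scale. CDC25C differed least, at 1.39-fold (1.12 to 1.72) lower.

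Other cell-cycle genes differed less. Of 22 measured genes of homologous recombination and the replication checkpoint, 20 lay below 0 with a median of -0.67, but EXO1, a nuclease of mismatch repair and end resection, was the only one at least 2-fold lower, from 8.87 FPKM with DHA to 3.53 in the combination. BRCA1 was 1.65-fold (1.52 to 1.81) lower and the checkpoint kinase CHEK1 1.34-fold (1.201 to 1.49) lower. Among 15 measured cyclins and inhibitors of G1, the median was -0.21 and 2 were at least 2-fold lower, among them the kinase inhibitor CDKN2C, from 18.2 FPKM with DHA to 5.31 in the combination. CCND1, cyclin D1, differed little, at 213 FPKM with DHA and 204 in the combination. The p53 target CDKN1A, which codes for the inhibitor p21, was 1.42-fold (1.35 to 1.49) higher, and MYC 1.32-fold (1.27 to 1.38) higher.

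Most glycolytic genes were lower as well. All 25 listed genes of glycolysis and glucose uptake were measured, 22 lay below 0, 10 were at least 2-fold lower and none was 2-fold higher. The median log2 ratio was -0.89, beside -0.62 for CCCP against control, where 4 were 2-fold lower. LDHA, which reduces pyruvate to lactate, had 362 FPKM with DHA and 111 in the combination, beside 443 in control and 182 with CCCP. The libraries stood in the same order as for PCNA, and the combination was 3.25-fold (3.19 to 3.32) under DHA. PGK1, the first ATP-yielding enzyme of the pathway, had 182 FPKM with DHA and 64.6 in the combination, beside 210.2 in control and 102 with CCCP. The glucose transporter SLC2A1 had 112 FPKM with DHA and 45.6 in the combination, beside 118 in control and 71.8 with CCCP. ENO1, the enolase, was among the most abundant transcripts of the line, at 594 FPKM with DHA and 287 in the combination, beside 581 in control and 311 with CCCP. The bifunctional enzymes PFKFB3 and PFKFB4 make and remove the sugar bisphosphate that activates phosphofructokinase. PFKFB3 had 19.6 FPKM with DHA and 6.26 in the combination, beside 22.4 in control and 6.86 with CCCP, and it was lower with CCCP by a similar fold with DHA, 3.13-fold (2.87 to 3.42), and without it, 3.26-fold (3.002 to 3.55). GAPDH, often used as a reference transcript, was 1.73-fold (1.71 to 1.75) lower. Exceptions included PFKM, the muscle form of phosphofructokinase, which was 1.15-fold (1.07 to 1.24) higher, and LDHB, whose ratio of 1.1-fold (0.983 to 1.23) lay within counting error.

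Genes of the hypoxia response were split. Of 28 listed, 25 were measured, 19 lay below 0, 7 were at least 2-fold lower and 2 at least 2-fold higher, with a median of -0.64 beside -0.54 for CCCP against control. The core letters of the hypoxia response element are shown in capitals in the RefSeq promoters (GRCh38.p14) of CA9 (chr9:35673678-35673977, plus strand), from this list, and LDHA (chr11:18394313-18394612, plus strand), from the glycolysis list, since both stood among the 15 lowest ratios.
CA9: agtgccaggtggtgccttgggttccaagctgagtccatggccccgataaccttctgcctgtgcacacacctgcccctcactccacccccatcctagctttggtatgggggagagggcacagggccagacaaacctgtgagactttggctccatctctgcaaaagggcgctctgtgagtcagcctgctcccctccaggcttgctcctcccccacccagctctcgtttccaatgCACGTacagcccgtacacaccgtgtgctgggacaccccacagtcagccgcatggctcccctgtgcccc
LDHA: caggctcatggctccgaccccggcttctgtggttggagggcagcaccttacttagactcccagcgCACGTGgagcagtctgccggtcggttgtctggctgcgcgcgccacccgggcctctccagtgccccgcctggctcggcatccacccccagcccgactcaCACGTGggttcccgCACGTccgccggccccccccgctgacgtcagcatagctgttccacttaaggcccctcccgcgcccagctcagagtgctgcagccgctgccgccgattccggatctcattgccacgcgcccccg
The letters ACGTG, on either strand, occurred in 12 of 20 hypoxia genes with a promoter entry (60%) and 8 of 22 glycolysis genes (36.4%), in 27.6% of promoters of measured protein-coding genes and in 21.4% of all promoters. Of the hypoxia genes past 2-fold in either direction 5 of 8 held them and of the others 7 of 12, and of the glycolysis genes 3 of 10 and 5 of 12. So short a core is common in promoters of this length.

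CA9 codes for carbonic anhydrase IX, a surface enzyme that handles the acid produced by glycolysis, and had 31.2 FPKM with DHA and 2.15 in the combination, beside 48.02 in control and 17.1 with CCCP. It was 14.5-fold (11.2 to 19.1) lower in the combination than with DHA and 2.81-fold (2.53 to 3.12) lower with CCCP than in control. BNIP3, a mitophagy receptor, had 69.1 FPKM with DHA and 26.6 in the combination, beside 69.5 in control and 29.01 with CCCP; both libraries with CCCP were low and both without it were high. The prolyl hydroxylase of collagen P4HA1 had 81.8 FPKM with DHA and 35.1 in the combination, beside 84.1 in control and 50.6 with CCCP. PDK1 belongs to the glycolysis list and holds pyruvate back from the mitochondrion. It had 5.51 FPKM with DHA and 2.74 in the combination, beside 5.63 in control and 2.57 with CCCP. ADM, which codes for the peptide adrenomedullin, stood apart in the combination, at 14.4 FPKM with DHA and 4.78 in the combination, beside 14.1 in control and 11.4 with CCCP. In the opposite direction, EPAS1, which codes for the factor HIF-2 alpha, had 29.6 FPKM with DHA and 82.9 in the combination, beside 15.3 in control and 17.6 with CCCP. Its ratio was 2.799-fold (2.696 to 2.91) with DHA and 1.15-fold (1.08 to 1.22) without. STC2, stanniocalcin-2, which is also a target of the integrated stress response, had 10.3 FPKM with DHA and 34.01 in the combination, beside 5.22 in control and 11.7 with CCCP. HIF1A itself was 1.16-fold (1.14 to 1.18) higher.

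**Figure D2:**
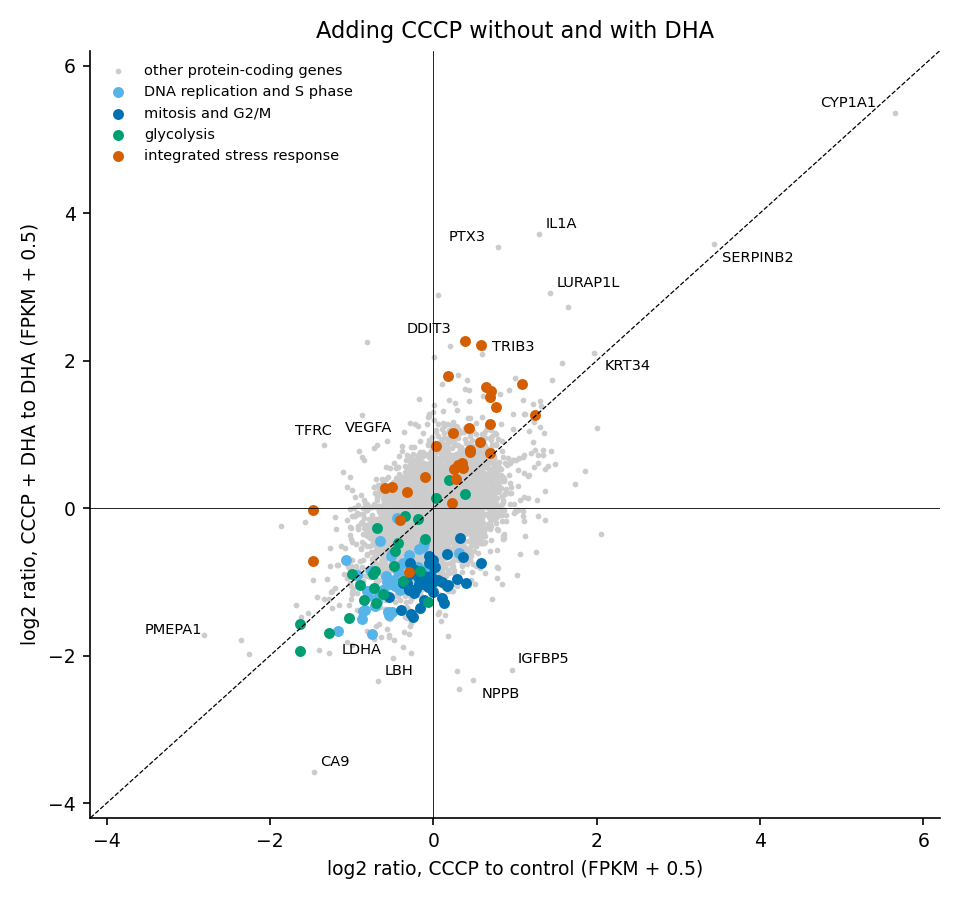
Log2 ratio of CCCP to control (horizontal) against log2 ratio of combination to DHA (vertical), each on FPKM + 0.5, 1 library per group. Points are protein-coding genes measured in combination against DHA, whether or not they reached 1 FPKM in control or CCCP. The dashed line marks equal ratios. Mitotic genes (dark blue) lie near 0 on the horizontal and near -1.01 on the vertical axis, glycolytic genes (green) lie mostly below 0 on both, and integrated stress response genes (orange) lie mostly above the line.

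In the higher direction the integrated stress response held the most members past 2-fold of any list. Of 36 listed genes, 31 were measured, 27 lay above 0, 12 were 2-fold or more higher and none 2-fold lower. The median log2 ratio was 0.76, beside 0.30 for CCCP against control. For 29 of the 31 the ratio was above that of CCCP to control, and for 2 it was below. DDIT3 (chr12:57516588-57521737), which codes for the transcription factor CHOP, had 12.7 FPKM with DHA and 62.95 in the combination, beside 5.503 in control and 7.37 with CCCP. TRIB3, a pseudokinase that CHOP and ATF4 induce, had 16.3 FPKM with DHA and 77.4 in the combination, beside 4.67 in control and 7.27 with CCCP. For both, DHA alone was above CCCP alone, and the combination was far above each. Their ratios to DHA were 4.96-fold (4.36 to 5.65) and 4.76-fold (4.44 to 5.11), while their ratios of CCCP to control were 1.34-fold (1.06 to 1.69) and 1.56-fold (1.34 to 1.81). ATF4 itself had 229 FPKM with DHA and 342 in the combination, beside 104 in control and 129 with CCCP. The transcript of PPP1R15A, the phosphatase subunit that reverses the eIF2-alpha signal, had 41.7 FPKM with DHA and 131 in the combination, beside 27.4 in control and 42.9 with CCCP. SESN2, a sensor of leucine that restrains mTORC1, had 7.78 FPKM with DHA and 28.3 in the combination, beside 3.48 in control and 4.004 with CCCP.

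Members that handle amino acids differed in how much CCCP added. SLC7A11, the cystine transporter, had 13.7 FPKM with DHA and 39.8 in the combination, beside 3.01 in control and 5.18 with CCCP. CTH, which makes cysteine from cystathionine, had 5.58 FPKM with DHA and 17.7 in the combination, beside 1.17 in control and 2.23 with CCCP. CHAC1, which breaks down glutathione, had 4.34 FPKM with DHA and 12.1 in the combination, beside 0.374 in control and 0.989 with CCCP. PSAT1, of serine synthesis, was already 144 FPKM with DHA against 22.7 in control, and CCCP added 1.46-fold (1.41 to 1.51), to 209. PHGDH, the first enzyme of that pathway, was 26.9 and 28.2 FPKM, a ratio of 1.05-fold (1.005 to 1.09). MTHFD2, a mitochondrial folate enzyme, went from 36.7 FPKM with DHA to 74.95 in the combination. CBS, which precedes CTH in cysteine synthesis, went from 3.16 FPKM with DHA to 1.51 in the combination, 2.09-fold (1.75 to 2.52) lower in FPKM but under 2-fold with the pseudocount. The ATF4 partner CEBPG went from 27.8 FPKM with DHA to 59.5 in the combination. The RefSeq promoter of CHAC1 on GRCh38.p14 (chr15:40953221-40953520, plus strand) is shown because it holds, in capitals, the letters of the element bound by CEBP and ATF factors, starting 209 bases before the start of the gene.
CHAC1: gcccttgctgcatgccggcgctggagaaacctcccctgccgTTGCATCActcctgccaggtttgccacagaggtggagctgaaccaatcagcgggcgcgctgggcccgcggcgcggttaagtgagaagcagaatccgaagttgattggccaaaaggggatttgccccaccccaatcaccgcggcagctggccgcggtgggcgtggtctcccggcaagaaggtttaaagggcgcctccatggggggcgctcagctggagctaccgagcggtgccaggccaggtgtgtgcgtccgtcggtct
These letters, TGATGNAA on both strands, occurred in 5 of 27 measured stress-response genes with an entry (18.5%), in 1.55% of promoters of measured protein-coding genes and in 3.62% of all promoters. Of the 11 members at least 2-fold higher with an entry, 3 held them, and of the other 16, 2 did.

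The cytosolic aminoacyl-tRNA synthetases, which charge tRNAs and many of which ATF4 induces, differed by less, mostly in the same direction. All 22 were measured, 20 lay above 0 and the median was 0.44, beside 0.06 for CCCP against control. WARS, the tryptophan enzyme, was the only one past 2-fold, at 22.96 FPKM with DHA and 48.8 in the combination, beside 8.82 in control and 9.499 with CCCP. GARS, the glycine enzyme, had 63.7 FPKM with DHA and 124 in the combination, beside 28.4 in control and 35.1 with CCCP. Cytosolic ribosomal proteins, all 43 measured, lay above 0 in 42 cases but by little, with a median of 0.16 and no member past 2-fold. Their median for CCCP against control was 0.39, and for all 43 the ratio was the smaller one with DHA present.

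Many genes of the antioxidant response driven by the factor NRF2 were higher with CCCP. Of 27 listed, 23 were measured, 20 lay above 0, 9 were at least 2-fold higher and none 2-fold lower, with a median of 0.69 beside 0.23 for CCCP against control. NQO1, a quinone reductase, had 92.2 FPKM with DHA and 241 in the combination, beside 44.02 in control and 110.3 with CCCP, and its ratio was 2.61-fold (2.53 to 2.697) with DHA and 2.51-fold (2.396 to 2.62) without. TXNRD1, the cytosolic thioredoxin reductase, had 268 FPKM with DHA and 564 in the combination, beside 167 in control and 329 with CCCP. For these 2 genes the fold was similar in either setting. GCLC, which catalyses the first step of glutathione synthesis, had 2.99 FPKM with DHA and 7.21 in the combination, beside 2.86 in control and 2.69 with CCCP. SRXN1, which repairs peroxiredoxins, had 1.36 FPKM with DHA and 3.29 in the combination, beside 1.77 in control and 1.26 with CCCP. For both genes the combination lay above the other 3 libraries. SQSTM1, the autophagy receptor p62 that also holds back the NRF2 inhibitor KEAP1, had 55.2 FPKM with DHA and 129 in the combination, beside 40.7 in control and 55.6 with CCCP.

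Both ferritin genes, which store iron, were highest in the combination, and both are also counted among the NRF2 targets above. FTL, the light chain of ferritin, had 4160 FPKM with DHA and 11355 in the combination, beside 3199 in control and 7916 with CCCP, and in the combination it was the most abundant of all listed nuclear transcripts. Its partner FTH1, the heavy chain, had 184 FPKM with DHA and 430.4 in the combination, beside 150.3 in control and 201 with CCCP. The wider list of heme and iron genes, which shares 4 members with the NRF2 list, had a median of 0.02 over 21 measured members, 12 above 0. TFRC, the transferrin receptor that brings iron in, had 28.04 FPKM with DHA and 50.9 in the combination, beside 31.9 in control and 12.4 with CCCP: lowest with CCCP alone and highest in the combination. ALAS1, the first enzyme of heme synthesis, was 1.64-fold (1.49 to 1.799) higher, and HMOX1, which degrades heme, had 5.31 FPKM with DHA and 9.68 in the combination, beside 8.08 in control and 4.68 with CCCP.

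Inflammatory transcripts were scarce in this line, and many were higher in the combination. Of 27 listed genes of inflammation and NF-kB signalling, 18 were measured, 15 lay above 0, 8 were at least 2-fold higher and 1 at least 2-fold lower, with a median of 0.81 beside 0.53 for CCCP against control. Of these 18, 4 reached 1 FPKM in the combination alone, among them IL1A, IL1B and CXCL3, and 2 with DHA alone. The filter fixed the direction of these members, so the counts above and below 0 rest partly on it. IL1B had 0.4499 FPKM with DHA and 5.802 in the combination, beside 0.116 in control and 1.43 with CCCP. IL6 had 2.08 FPKM with DHA and 10.5 in the combination, beside 1.91 in control and 3.15 with CCCP. The neutrophil chemokine CXCL8 had 17.1 FPKM with DHA and 29.7 in the combination, beside 14.5 in control and 7.48 with CCCP, low with CCCP and highest in the combination. CXCL3 had 0.471 FPKM with DHA and 3.53 in the combination, beside 0.671 in control and 0.674 with CCCP. RELB, a subunit of NF-kB, had 2.16 FPKM with DHA and 6.87 in the combination, beside 1.27 in control and 3.27 with CCCP. CSF2, a growth factor of granulocytes and macrophages, was the member past 2-fold in the lower direction, at 15 reads with DHA and 2 in the combination. LIF, a cytokine of the IL6 family, was 1.64-fold (1.56 to 1.74) lower, from 48.3 FPKM with DHA to 29.4 in the combination. Of 13 leukocyte markers, 6 had 0 reads in all 4 libraries and only 1 passed 1 FPKM; their summed level was 1.11 FPKM with DHA and 0.36 in the combination, beside 1.35 in control and 0.64 with CCCP.

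**Figure D3:**
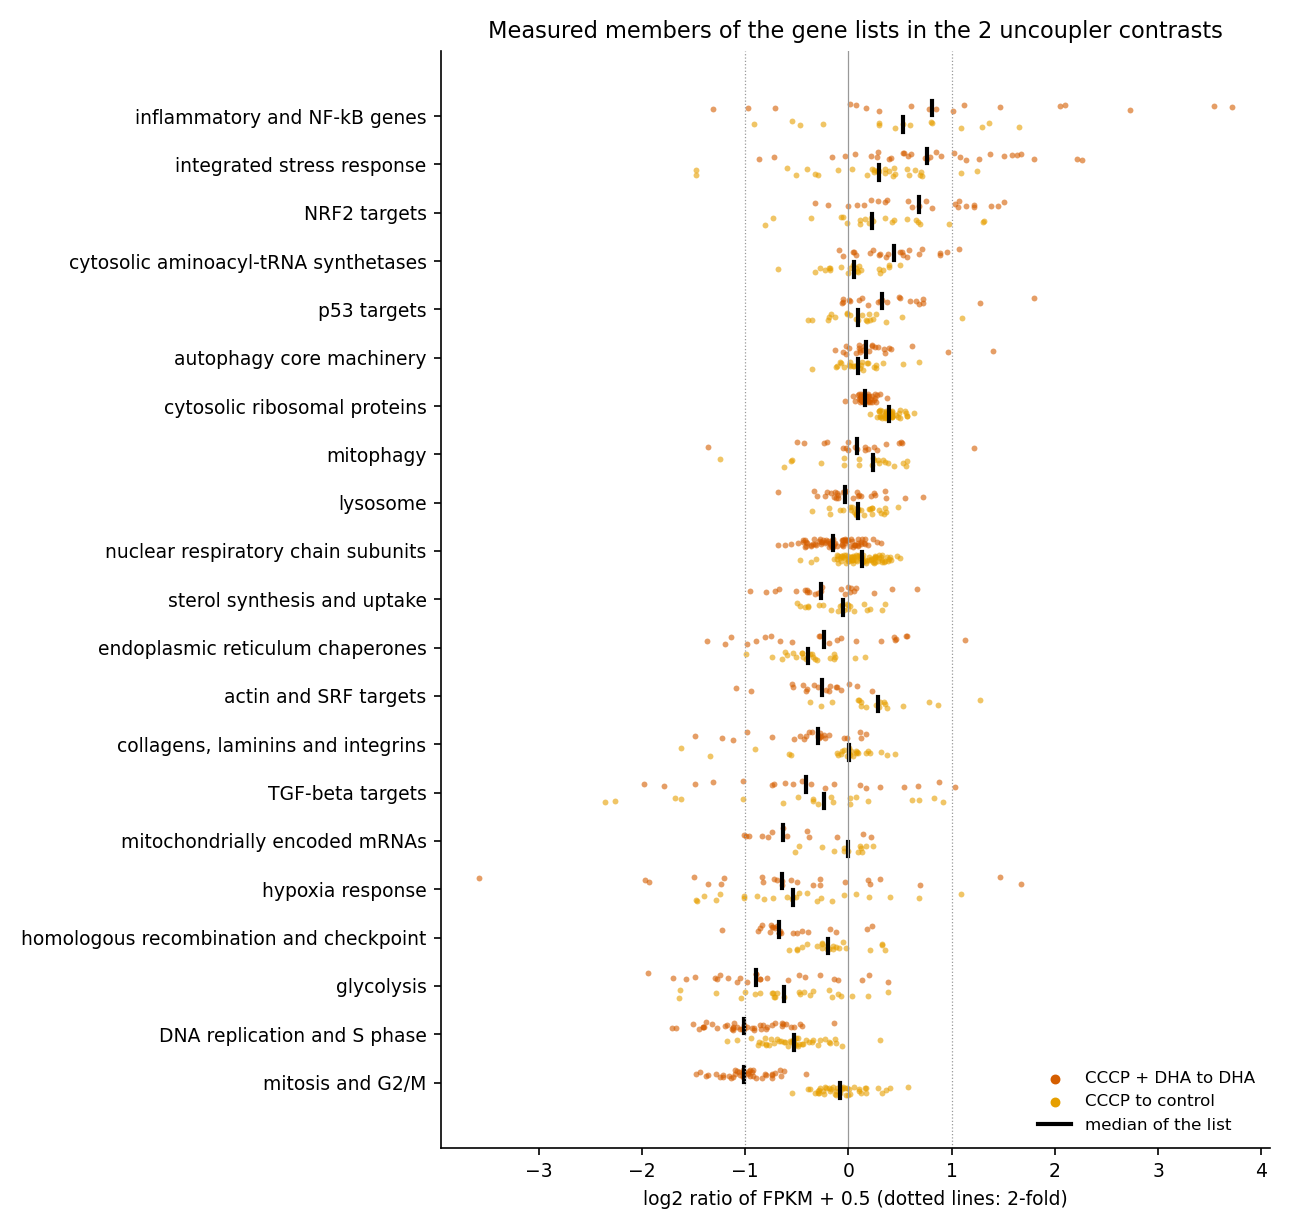
Log2 ratio of combination to DHA for the measured members of the gene lists, 1 point per gene (orange), with the ratio of CCCP to control for the same lists (yellow). Black bars are the medians of the lists and dotted lines mark 2-fold. Replication and mitosis have medians of -1.01, glycolysis -0.89, the integrated stress response 0.76 and NRF2 targets 0.69, against 0.01 over all genes.

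Mitochondrial transcripts from the organelle's own genome differed in both directions. The heavy strand of mitochondrial DNA is transcribed from the ribosomal RNAs onward as a long precursor that is cut into separate RNAs, and all the genes named here except MT-ND6 are read from that strand. The 2 ribosomal RNAs, MT-RNR1 and MT-RNR2, and the next 2 genes, MT-ND1 and MT-ND2, were higher in the combination than with DHA, and the 10 genes from MT-CO1 to MT-CYB on the same strand were lower. Reads over the first 4 genes summed to 138400 with DHA and 187478 in the combination, 1.35-fold (1.34 to 1.36) more. Reads over the other 10 summed to 741360 and 451779, 1.64-fold (1.64 to 1.65) fewer. The groups divide where the sign of the ratio changes, so their sums restate that change. Ribosomal RNA held 128904 of the 187478 reads of the first group in the combination. The part of position or of RNA type was not tested. On the same scale, which accounts for the depth of each library, CCCP against control gave 1.38-fold more for the first group and 1.06-fold (1.056 to 1.063) more for the second. Within the first group, CCCP against control was 1.89-fold (1.87 to 1.91) higher for the ribosomal RNAs. MT-ND1 and MT-ND2 were lower there, with log2 ratios of -0.26 and -0.52.

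Gene by gene, MT-RNR2, the large ribosomal RNA, had 2763 FPKM with DHA and 4052 in the combination, beside 1947 in control and 3751 with CCCP. MT-ND1, a subunit of complex I, had 1499 FPKM with DHA and 1750 in the combination, beside 1423 in control and 1189 with CCCP, so that CCCP went with a lower level in the absence of DHA and a higher level in its presence. MT-CO1, the catalytic subunit of cytochrome oxidase, had 10199 FPKM with DHA and 5938 in the combination, beside 9076 in control and 10674 with CCCP. The next gene of that enzyme, MT-CO2, had 6372 FPKM with DHA and 3164 in the combination, beside 6187 in control and 6157 with CCCP. The 3 libraries other than the combination differed little for MT-CO2, and the combination was 2.01-fold (1.99 to 2.04) under DHA. MT-ND5 was 1.98-fold (1.95 to 2.01) lower, whereas MT-ND3, which lies between them, was only 1.08-fold (1.05 to 1.11) lower. MT-ND6, next to MT-ND5 but on the other strand, was 1.95-fold (1.897 to 2) lower, but its reads cannot be separated from those of the other strand. The 13 mitochondrial mRNAs had a median log2 ratio of -0.63, beside -0.01 for CCCP against control, and their share of all reads was 4.42% in control, 4.41% with CCCP, 4.66% with DHA and 3.07% in the combination. Mitochondrial ribosomal RNA made up 0.363 to 0.763% of reads, and how the libraries retained it is not stated in the labels.

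**Figure D4:**
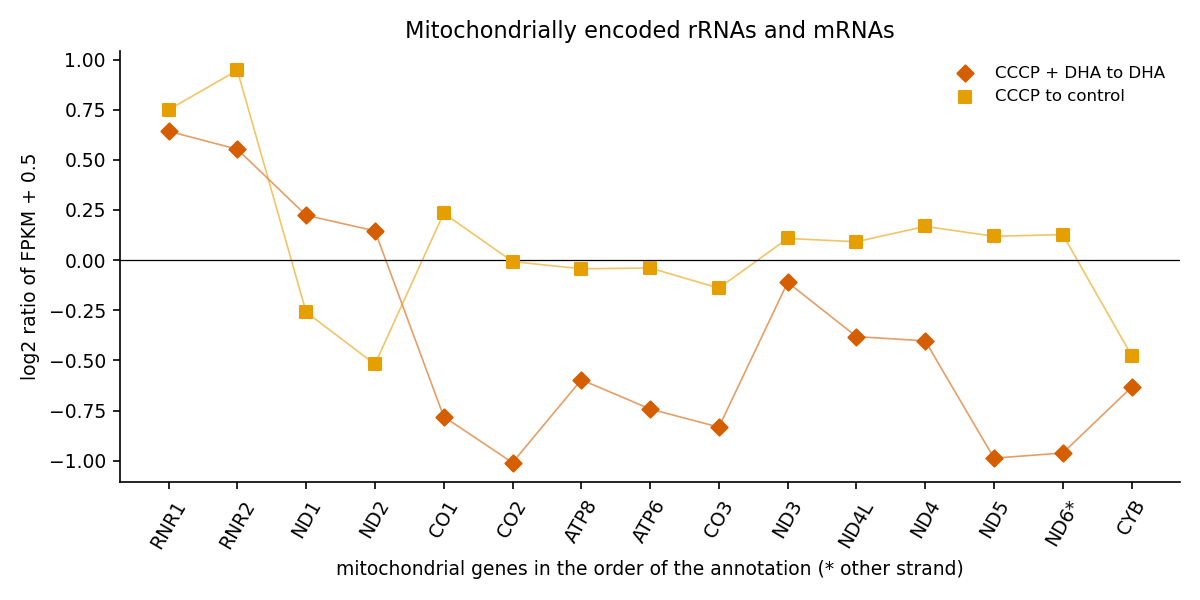
Log2 ratios of the mitochondrially encoded genes in the order of their position on the mitochondrial chromosome, for combination against DHA and for CCCP against control, 1 library per group. With DHA present the ratios run from 0.64 at MT-RNR1 to 0.15 at MT-ND2 and then drop to -0.78 at MT-CO1, where CCCP against control goes from -0.52 at MT-ND2 to 0.23 at MT-CO1.

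Nuclear genes for mitochondrial proteins differed little. Of 77 nuclear genes of the respiratory chain and ATP synthase, 73 were measured and none was 2-fold different, with a median of -0.14. By complex, the medians were -0.06 for complex I, -0.00 for complex II and -0.01 for complex III. They were -0.16 for complex IV and -0.20 for ATP synthase, where 15 of 16 genes lay below 0. Those 16 include ATP5IF1, an inhibitor of the enzyme, and CYCS, cytochrome c, was counted in no complex. For 67 of the 73 the ratio was lower with DHA present than for CCCP against control, whose median was 0.13. The tricarboxylic acid cycle had a median of -0.01 over 19 genes, with none past 2-fold. Of 17 mitochondrial chaperones and proteases, 13 lay above 0 with a median of 0.14, and the largest difference was in HSPA9, the matrix Hsp70, at 45.2 FPKM with DHA and 82.9 in the combination, beside 33.9 in control and 32.4 with CCCP. HSPD1, the matrix chaperonin, was 1.403-fold (1.37 to 1.44) higher.

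Genes of mitophagy, the removal of mitochondria by autophagy, went in both directions. Of 22, 21 were measured, 12 lay above 0 and the median was 0.09. The 2 members past 2-fold were SQSTM1, higher, and BNIP3, lower, both described above. PINK1, the kinase that accumulates on depolarised mitochondria, had 6.76 FPKM with DHA and 7.62 in the combination, beside 8.39 in control and 12.7 with CCCP. The receptor OPTN had 29.03 FPKM with DHA and 40.9 in the combination, beside 26.04 in control and 38.7 with CCCP. For PINK1 the ratio was 1.51-fold (1.38 to 1.66) without DHA and 1.13-fold (1.01 to 1.27) with it. Of 24 measured genes of the autophagy machinery, 20 lay above 0 with a median of 0.17. MAP1LC3B, which codes for the membrane-bound LC3 of autophagosomes, was the only one past 2-fold, at 23.8 FPKM with DHA and 63.5 in the combination, beside 18.03 in control and 18.1 with CCCP. Without DHA its ratio of CCCP to control was 1.003-fold (0.937 to 1.07). WIPI1, an early factor of autophagosome formation, went from 7.45 FPKM with DHA to 15.1 in the combination. The 28 lysosomal genes had a median of -0.03 and none past 2-fold.

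Chaperones of the endoplasmic reticulum lay mostly below 0, unlike the stress-response genes. All 22 were measured, 14 lay below 0, 3 were at least 2-fold lower and 1 at least 2-fold higher, with a median of -0.23 beside -0.39 for CCCP against control. CALR, the lectin chaperone calreticulin, had 302 FPKM with DHA and 116 in the combination, beside 430 in control and 284 with CCCP. The disulfide isomerase PDIA4 had 62.3 FPKM with DHA and 26.98 in the combination, beside 101 in control and 74.3 with CCCP. HSPA5, the main Hsp70 of this compartment, had 214 FPKM with DHA and 199 in the combination, beside 279 in control and 139.8 with CCCP; CCCP went with a lower level without DHA and with 1.08-fold (1.05 to 1.105) less in its presence. ERN1, the sensor IRE1, was the higher member, from 1.28 FPKM with DHA to 3.397 in the combination, and its target XBP1 was 1.49-fold (1.39 to 1.59) higher. Sterol synthesis had a median of -0.26 over 23 genes and fatty acid synthesis -0.22 over 14, with none past 2-fold in either list. The desaturase SCD was 1.75-fold (1.63 to 1.87) lower.

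Several targets of TGF-beta were lower with CCCP in both settings. Of 20 measured, 13 lay below 0, 5 were at least 2-fold lower and 1 was at least 2-fold higher, with a median of -0.41. CCCP against control had a median of -0.23, with 5 members 2-fold lower as well. PMEPA1 had 26.97 FPKM with DHA and 7.45 in the combination, beside 41.05 in control and 7.58 with CCCP, so both libraries with CCCP had close levels. TGM2, a protein-crosslinking transglutaminase, had 25.7 FPKM with DHA and 10.1 in the combination, beside 36.7 in control and 11.1 with CCCP. COL1A1, the main chain of type I collagen, had 2.09 FPKM with DHA and 0.425 in the combination, beside 8.86 in control and 2.54 with CCCP. LTBP2, which binds matrix microfibrils, had 39.7 FPKM with DHA and 19.3 in the combination, beside 43.3 in control and 21.2 with CCCP. ID1, an inhibitor of differentiation that BMP signals induce, was the member in the other direction, from 32.9 FPKM with DHA to 67.6 in the combination. Of 25 measured collagens, laminins and integrins, 22 lay below 0 with a median of -0.29, beside 0.01 without DHA, and 3 were past 2-fold, among them COL5A1 from 21.7 FPKM with DHA to 9 in the combination. Fibroblast markers, 4 of 12 of which were measured, summed to 47.7 FPKM with DHA and 31.5 in the combination, beside 73.3 in control and 49.9 with CCCP; their part in the matrix genes was not tested.

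Genes of the actin cytoskeleton that the factor SRF controls gave opposite signs in the 2 settings. Of 18 measured, 15 lay below 0 for combination against DHA, with a median of -0.26, and 15 lay above 0 for CCCP against control, with a median of 0.28. For all 18 the ratio was lower in the presence of DHA. ACTB, beta-actin, had 1137 FPKM with DHA and 785 in the combination, beside 1321 in control and 1677 with CCCP. MYH9, the heavy chain of non-muscle myosin, had 311 FPKM with DHA and 253 in the combination, beside 301 in control and 519 with CCCP. Targets of YAP and TEAD were mixed, with 15 of 22 above 0 and a median of 0.11. ANKRD1 had 49.5 FPKM with DHA and 133 in the combination, beside 26.3 in control and 62.03 with CCCP. GADD45A had 42.6 FPKM with DHA and 103 in the combination, beside 26.7 in control and 58.1 with CCCP. Their folds with DHA were 2.68-fold (2.53 to 2.84) and 2.43-fold (2.29 to 2.58), and without it 2.36-fold (2.19 to 2.55) and 2.17-fold (2.02 to 2.34). CYR61, a matricellular protein, had 760.1 FPKM with DHA and 1249 in the combination, beside 548 in control and 1386 with CCCP, while its relative CTGF was 1.31-fold (1.28 to 1.35) lower.

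Feedback genes of the MAPK pathway, which is active in uveal melanoma, lay above 0 in 13 of 17 cases with a median of 0.18, against -0.21 for CCCP against control. DUSP5, a nuclear ERK phosphatase, was past 2-fold, from 12.9 FPKM with DHA to 32.7 in the combination, and DUSP6 was 1.54-fold (1.302 to 1.83) higher. Targets of p53 lay above 0 in 18 of 21 cases with a median of 0.33, and the 2 past 2-fold, SESN2 and GADD45A, also belong to other lists. Among 22 measured apoptosis regulators 18 lay above 0 with a median of 0.19. The death receptor gene TNFRSF10B, a target of CHOP and p53, had 34.4 FPKM with DHA and 57.3 in the combination, beside 33.7 in control and 29.6 with CCCP. BBC3, which codes for PUMA, went from 8.05 FPKM with DHA to 13.3 in the combination. Of 26 listed driver and lineage genes of uveal melanoma, 12 were measured and the other 14 stayed under 1 FPKM in every library. Of the 12, 4 lay above 0 and none was past 2-fold, with a median of -0.09. MITF, the regulator of the melanocyte lineage, had the lowest ratio of the measured members. It had 7.35 FPKM with DHA and 5.01 in the combination, beside 8.81 in control and 8.89 with CCCP. Of 12 melanocyte markers 6 were measured, and their summed level was 74.5 FPKM with DHA and 72.5 in the combination, beside 81.9 in control and 88.01 with CCCP. Epithelial markers, 4 of 12 measured, summed to 349 FPKM with DHA and 271 in the combination, beside 380.3 in control and 303 with CCCP, and none of 8 endothelial markers reached 1 FPKM.

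The calls with DHA and those without it shared part of their genes. Among 10517 protein-coding genes measured in both comparisons, 84 were 2-fold higher with CCCP added to DHA, 61 with CCCP alone and 21 in both, which is 25% of the first set and 34.4% of the second. Of the 84, 75 (89.3%) had a ratio of the same sign in CCCP against control, where 48.7% of all these genes lay above 0. Their medians were 1.27 and 0.50. In the lower direction 203 genes were called with DHA, 59 without and 26 in both, 12.8% and 44.1%, and 171 of the 203 (84.2%) had the same sign, against 51.3% of all. Their medians were -1.19 and -0.43. No gene was called in opposite directions. Across these genes the ratios of both comparisons had a Pearson correlation of 0.46 and a Spearman correlation of 0.41, as a description, since all genes of a comparison come from the same 2 libraries. The spread of ratios was wider with DHA present, with an SD across genes of 0.40 beside 0.33.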

How the data were processed

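RNA sequencing of the OMM2.3 line gave 4 libraries, 1 per group, and per the labels' protocols a TruSeq kit was used on 1 ug of RNA. The authors deposited FPKM values, the unit named per the file headers, for 58735 genes in every library. No source used here names the aligner, the counter, its treatment of overlapping genes or the build. Gene types, exon lengths and coordinates came from GENCODE 29 (Ensembl 94, GRCh38). FPKM multiplied by exon length gave whole reads for 100% of values above 0, within 0.01 reads, and these reads served for depth and counting intervals. The scaling between libraries was kept as deposited.

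Log2 ratios were taken on FPKM + 0.5 wherever either library reached 1 FPKM, and a gene was called at 2-fold. Without replicates no test was made. Exact 95% Clopper-Pearson intervals were checked on simulated counts that held counting error only, which says nothing about spread between cultures. The 39 gene lists, 5 marker lists and the members were chosen with earlier results of these data known. Genes named outside the lists were the 15 highest and 15 lowest ratios among protein-coding genes averaging 5 FPKM or more, apart from those said to be named after their values were seen, and 1 of the 15 lowest is not reported here. RefSeq promoters were searched as text. Alternatives covered pseudocounts of 0.1 and 1, filters, rescaling, size rules of 1.5-fold and 4-fold, protein-coding genes alone and, chosen after seeing the data, a minimum of 50 reads. Python 3.11.15 was used with scipy 1.17.1 for intervals, matplotlib 3.10.9 for plots, and pandas 2.3.3 and numpy 2.4.6.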

Additional observations from a re-analysis of the deposited data

Results flagged for a closer look

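Of 802 listed or ranked genes measured in both comparisons, 7 went in opposite directions, by at least 1.5-fold each way and with counting intervals that excluded 1 on both sides. For each, the difference between the log2 ratios, combination to DHA minus CCCP to control, was not tested, since each comparison rests on 2 libraries. The share of all genes that went in opposite directions by this rule was not counted. Ranked genes were chosen on the ratio of combination to DHA itself. A difference of at least 1 was counted over 6426 protein-coding genes averaging 5 FPKM or more over DHA and combination. It was upward in 35 (0.545%) and downward in 85 (1.32%).

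TFRC had the largest difference upward, 2.18: 2.58-fold (2.44 to 2.73) lower with CCCP alone and 1.81-fold (1.74 to 1.89) higher with CCCP added to DHA. CXCL8 followed with 1.69, being 1.94-fold (1.69 to 2.24) lower with CCCP alone and 1.73-fold (1.58 to 1.91) higher with CCCP added to DHA. VEGFA, the endothelial growth factor gene, had 12.9 FPKM with DHA and 21.2 in the combination, beside 8.75 in control and 4.53 with CCCP, a difference of 1.57. HMOX1 differed by 1.54, being 1.73-fold (1.45 to 2.07) lower in the first setting and 1.82-fold (1.54 to 2.16) higher in the second. SERPINB8, an intracellular protease inhibitor, had 4.599 FPKM with DHA and 7.504 in the combination, beside 4.29 in control and 2.16 with CCCP, a difference of 1.498.

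IGFBP5, a secreted protein that binds insulin-like growth factors, had the largest difference of the 7, at -3.15. It had 6.62 FPKM with DHA and 1.06 in the combination, beside 9.204 in control and 18.4 with CCCP, so that CCCP went with 1.997-fold (1.86 to 2.15) more in the absence of DHA and 6.24-fold (5.13 to 7.64) less in its presence. KRT32, a hair keratin, had 1.16 FPKM with DHA and 0.364 in the combination, beside 1.97 in control and 3.73 with CCCP, a difference of -1.72. It rests on few reads, 35 with DHA and 11 in the combination, and close copies of this gene may share its reads.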

How the results depend on the processing

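No paired analysis was possible because each group had 1 library, which also left no replicate to leave out. The main counts were 408 genes at least 2-fold higher and 452 lower. They were 736 and 687 with no filter, 78 and 170 with a mean of at least 5 FPKM, 105 and 212 over protein-coding genes, 975 and 1174 at 1.5-fold, 99 and 49 at 4-fold, and 121 and 236 with at least 50 reads, chosen after seeing the data. A counting interval excluding 1 left 198 higher and 320 lower. The share of higher calls was 47.4% over all genes, 33.1% over protein-coding genes and 33.9% with at least 50 reads, but 51.5% over all genes with equal totals (441 higher and 415 lower). The protein-coding and 50-read settings change which genes are counted, and the calls they remove are mostly noncoding genes with few reads. Equal totals instead rescales the combination library. Rescaling shifted every ratio by at most 0.04. List medians were held against the median counting half-interval of their members. Under the alternatives 300 moved by less or not at all, 8 by more and 4 changed sign. List medians were taken over protein-coding genes in every setting. The setting of protein-coding genes alone therefore could not move any of the 39 medians, and it counts among the 300. Aryl hydrocarbon receptor targets were 1.02 with a pseudocount of 0.1 and 1.097 with a mean of at least 5 FPKM, and plasminogen genes -0.23 with no filter. The sign changed for driver and lineage genes, 0.0092 with no filter, and with equal totals for the tricarboxylic acid cycle, 0.0264, and the lysosome, 0.00671. Hair keratins were -0.0303 with no filter, 1.08 with a mean of at least 5 FPKM and 0.64 with at least 50 reads. Targets of p53 were 0.49 with a mean of at least 5 FPKM. With equal totals, mitochondrial mRNAs were -0.59 and ribosomal proteins 0.20. Where no value above shows it, the cause was not tested. Depth limits genes near 1 FPKM most, and 1 library per group leaves culture-to-culture spread unmeasured.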

Other observations

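Several genes outside the lists were named after their values were seen. Secreted signals went in both directions. FGF2, a fibroblast growth factor, had 56.3 FPKM with DHA and 171 in the combination, beside 51.1 in control and 97.1 with CCCP. NTN4, a laminin-related netrin, had 4.23 FPKM with DHA and 12.7 in the combination, beside 4.38 in control and 7.5 with CCCP. In both, CCCP was above control and the combination above every other library. BMP4, a bone morphogenetic protein, had 15.6 FPKM with DHA and 5.49 in the combination, beside 19.1 in control and 15.8 with CCCP. EDN1, one of the 15 lowest ratios, had 10.6 FPKM with DHA and 2.88 in the combination, beside 9.83 in control and 6.595 with CCCP. SPARC, a collagen-binding matrix protein, had 151 FPKM with DHA and 63.6 in the combination, beside 211 in control and 201 with CCCP. These 3 were lowest in the combination and differed less between control and CCCP.

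CAV1, the main membrane protein of caveolae, small pits of the plasma membrane, had 38.6 FPKM with DHA and 11.8 in the combination, beside 56.99 in control and 32.1 with CCCP. CAVIN1 had 139.5 FPKM with DHA and 79.9 in the combination, beside 158 in control and 135 with CCCP. CAV2 was 1.37-fold (1.26 to 1.49) lower with CCCP added to DHA. CAVIN2, a ranked gene, was 3.67-fold (3.12 to 4.34) lower, whereas CCCP alone had left it 1.14-fold (1.03 to 1.26) above control.

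Some metabolic genes stood out in the combination. SAT1, which acetylates polyamines for export, had 22.6 FPKM with DHA and 66.8 in the combination, beside 21.2 in control and 37.7 with CCCP. UPP1, a uridine phosphorylase, had 11.7 FPKM with DHA and 32.7 in the combination, beside 6.11 in control and 8.42 with CCCP. HKDC1, a hexokinase relative, had 3.45 FPKM with DHA and 10.5 in the combination, beside 1.59 in control and 1.35 with CCCP. For HKDC1 the ratio of CCCP to control was 1.18-fold (0.901 to 1.55) lower, within counting error.

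A further set was high with CCCP alone and not in the combination. CYP24A1, which inactivates vitamin D, had 35.1 FPKM with DHA and 44.1 in the combination, beside 53.6 in control and 179 with CCCP. OXTR, the oxytocin receptor, had 41.7 FPKM with DHA and 37.1 in the combination, beside 36.2 in control and 94.3 with CCCP. TM4SF1, a tetraspan surface protein, had 210.4 FPKM with DHA and 112 in the combination, beside 202 in control and 413 with CCCP. CEMIP, which takes part in hyaluronan breakdown, had 2.13 FPKM with DHA and 1.56 in the combination, beside 3.59 in control and 16.4 with CCCP. The difference between the comparisons was not tested for any of them.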
